A study of Homo sapiens with 18 samples.

Results

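MIR elements, the mammalian-wide interspersed repeats, were taken as every row whose repeat name begins with MIR in the 2 deposited count tables of a study of IMR90 lung fibroblasts. Of the 2472685 repeat copies listed in the tables together, 188799 were MIR copies, on 24 chromosomes. They carried 4 names, each of which is a subfamily. The 5-FU table held 68479 MIRb copies, 52853 MIR, 31157 MIRc and 28416 MIR3 copies. In the Nutlin table these numbers were 41033, 31760, 18484 and 16979. Both tables listed 100362 of the MIR copies, 80543 stood in the 5-FU table alone and 7894 in the Nutlin table alone.

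MIR elements are short non-coding repeats that spread through the genomes of early mammals and no longer move. Their head derives from a transfer RNA and carries promoter motifs of the kind read by RNA polymerase III, their centre is a conserved core, and their tail resembles the end of L2 elements, whose enzymes are thought to have copied them. Many copies lie within longer transcripts, such as introns and the ends of messenger RNAs. A count on a copy can therefore come from RNA started at the copy or from a longer transcript that runs through it, and these cannot be told apart here.

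IMR90 is a human fibroblast line from lung, labelled wildtype, and total RNA was sequenced from 18 samples in 9 groups of 2. The untreated cells had received fresh medium 12 h before extraction. The other groups were 5 µM Nutlin for 6 h, which releases p53 from its inhibitor MDM2, 5-fluorouracil (5-FU), a pyrimidine antimetabolite, for 6, 12 or 24 h at 375 µM (a dose the label gives without naming its drug), and for each drug and time a DMSO control of matching volume. The series asks how repeat expression goes with p53. No label says that the samples of a group came from separate cultures, so each p-value measures the spread between these samples only. The tables list repeats and no genes, and the cell type was not checked against its markers.

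Libraries of the 5-FU table held 2412334 to 6290320 counts, of which 198845 to 493633 fell on MIR copies. Those of the Nutlin table held 9109885 to 11880265, of which 199506 to 269376 fell on MIR copies. With ribosomal, transfer and other structural RNA names left out, MIR copies took 10.9% to 13.0% of what was counted per 5-FU table library and 10.9% to 11.2% per Nutlin table library. Both columns of untreated cells in the latter held the same value at every copy and were used as 1 sample. The DMSO libraries of 12 h were the shallowest of the 5-FU table, with 2412334 and 2540089 counts. They also had its largest scaling factors (TMM), at 1.32 and 1.23, and the 12 h comparisons rest on this pair. Replicate 2 of 5-FU at 24 h stood apart, with a count on 81493 MIR copies against 49033 in its partner and 37607 to 73466 in the other libraries of the 5-FU table. The count of called copies at 24 h and the level of MIR3 are given without it as well. The overlaps, the shares by depth and by position and the neighbour values at 24 h include it and were not recomputed without it.

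Most MIR copies had very few reads. At most 5 counts over all libraries were found on 55.1% of MIR copies of the 5-FU table and on 80.7% of those of the Nutlin table. Only 3.94% and 5.56% of the listed MIR copies were at 0 in every library, against 41.6% and 56.0% of all listed copies, so the tables list few silent MIR copies and the share of MIR copies that are expressed was not read from them. After the filter on low counts, 6165 MIR copies (3.41%) of the 5-FU table could be tested, and 2166 (2.00%) of the Nutlin table could. These copies held 68.4% and 65.8% of the MIR counts. A copy that passed the filter through the group where it is high had to differ, and the copies left out are not described as unchanged.

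The row names give, beside the genome position, a pair of numbers that was read as the stretch of the repeat that the copy holds. The length of that stretch followed the length of the copy in the genome over the 180905 copies of the 5-FU table (Pearson's r 0.98 across copies, a check of the reading and not a result). Few copies were complete. Among positions read in steps of 3, position 133 was the one most often present in the listed MIRb copies of that table, in 84.0% of them, and position 1 lay in 1.44% (MIR3) to 4.47% (MIR) of the listed copies of a name. Copies that were deep enough to test held most positions of the repeat more often, and not the centre alone. At the centre, 89.1% of tested MIRb copies covered position 133. For MIR3 the highest coverage, at position 121, was 87.3% of listed and 90.2% of tested copies. Away from the centre, position 220 lay in 42.0% of listed and 51.5% of tested MIRc copies. Copies that began within the first 20 positions, and so could hold the promoter-bearing head, were set beside those that began after position 100. Of the listed copies of the 5-FU table, 3.77% of the former and 2.51% of the latter were deep enough to test. These shares were not adjusted for length. The median length of the former was 190 bp and that of the latter 86 bp, and their counts per kb were 188.8 and 186.5. Of such copies tested in the Nutlin table, 6.62% and 7.14% were called under Nutlin. Of those tested in the 5-FU table, 9.57% and 11.9% were called at 12 h and 3.19% and 3.38% at 24 h of 5-FU. For DMSO against untreated cells the shares were 1.97% and 3.03%. Copies that began at positions 21 to 60 had 8.87% called under Nutlin, 9.27% at 12 h and 3.30% at 24 h. No test of these shares was made.

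**Figure D1:**
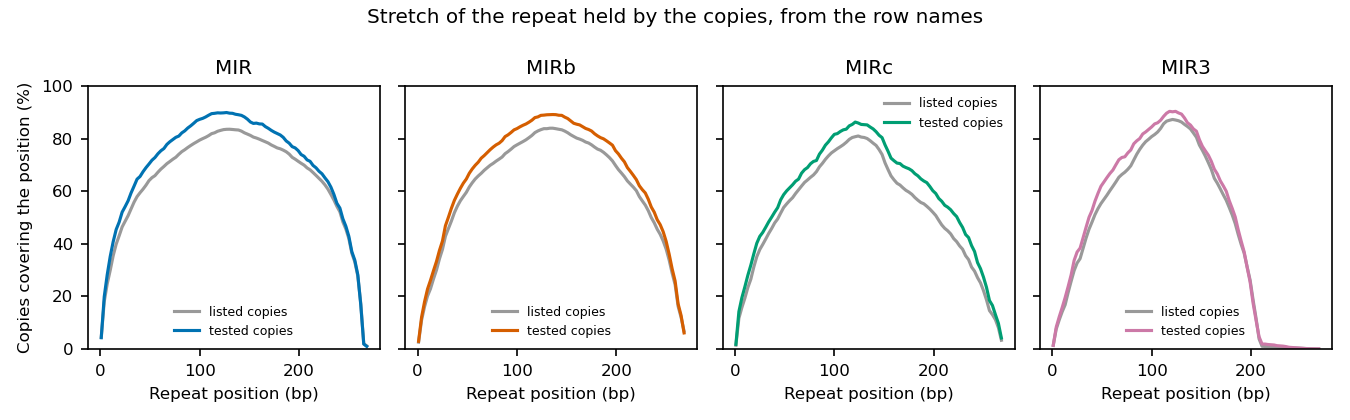
Share of MIR copies (%) that cover each position of the repeat (bp), by name, for the copies listed in the 5-FU table (grey) and those tested in it (coloured), in steps of 3 positions. At its highest point the centre is present in 81.0% (MIRc) to 87.3% (MIR3) of listed copies, and there the tested copies lie slightly above the listed ones. They lie above them over most other positions too.

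The 4 names differed in level in the same order in every group. Counts scaled to a common library size (CPM) were divided by the summed length of the listed copies of a name, in megabases, so that names of different total length can be set side by side. MIR3, whose listed copies were the shortest (median 114 bp in the 5-FU table), was highest at 5395 to 9738 CPM per Mb over the libraries of the 5-FU table, followed by MIRc at 3017 to 4261, MIRb at 1727 to 2267 and MIR at 1566 to 2058. In the Nutlin table the levels were 3245 to 4266 for MIR3, 1872 to 2041 for MIRc, 1022 to 1081 for MIRb and 863 to 918 for MIR. The ranges of MIR3 and MIRc did not overlap each other or those of the other names in either table. MIRb and MIR overlapped in the 5-FU table and not in the Nutlin table. The tables list different copies, so levels are not compared between them.

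Much of the MIR3 level came from 1 copy. The MIR3 copy at chr7:100780892-100781040 (hg19) held 30.1% of the MIR3 counts of the 5-FU table and 25.0% of those of the Nutlin table. By contrast, the most abundant copy of MIRc held 7.47% and 7.35% of the counts of its name, that of MIR 2.44% and 3.54%, and that of MIRb 1.00% and 1.29%.

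**Figure D2:**
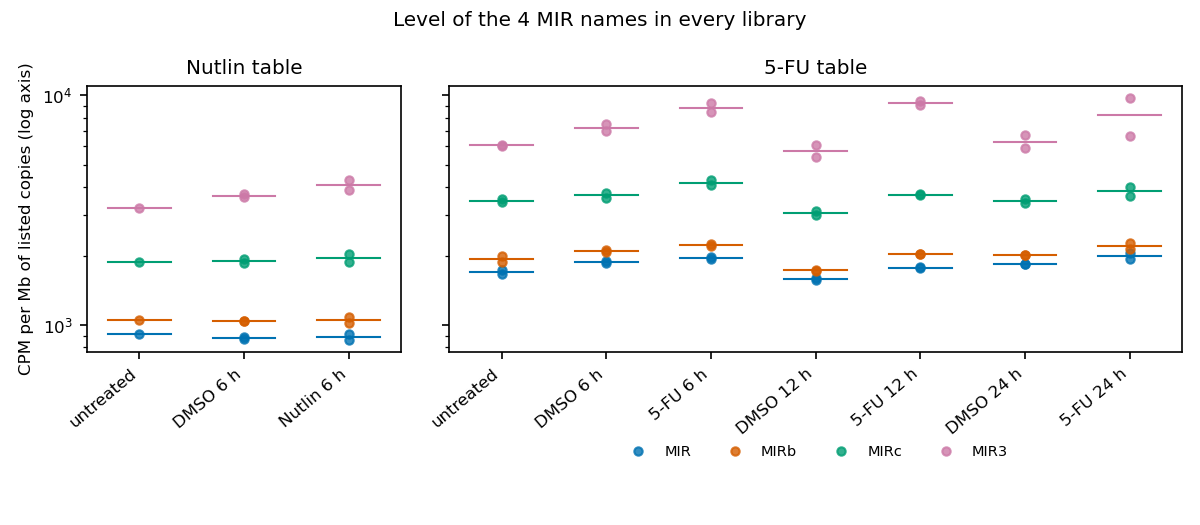
Level of each MIR name in every library, in CPM per Mb of listed copies on a log axis, with a dot per library and a line at the group mean. MIR3 lies above MIRc, and MIRc above MIRb and MIR, in every group of both tables. The dots of 5-FU at 24 h lie far apart for MIR3.

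Summed over a name, MIR elements changed little under either drug except for MIR3 at 12 h of 5-FU. MIR3 stood at 9479 and 9111 CPM per Mb in the 12 h 5-FU libraries and at 5395 and 6066 in their DMSO controls. Both drug libraries lay above both controls. The log2 fold change was 0.70 (SE 0.14, adjusted p = 0.00186, edgeR's quasi-likelihood test with Benjamini-Hochberg adjustment over all names), and it was 0.32 (adjusted p = 0.0087) with the chromosome 7 copy left out. MIRc and MIRb were also called higher in this comparison, by 0.26 (adjusted p = 0.016) and 0.23 (adjusted p = 0.0249) on the log2 scale, and MIR was at 0.16 (adjusted p = 0.0866). These 3 calls of 4 names stand beside 33.8% of all names called (28.5% higher, 5.29% lower). The direction of MIRb, MIRc and MIR at 12 h depended on the scaling: with library size alone they were called lower, at -0.34, -0.31 and -0.41, and MIR3 was at 0.13 (adjusted p = 0.37). Without the TMM factors the median of all names at 12 h lay at -0.40, and with them at 0.17. The calls of MIRb and MIRc were also lost when a single library of the comparison was left out or when the DMSO libraries of 6 h and 24 h took the place of those of 12 h. MIR3 was called in each of these last cases, with 0.46 (adjusted p = 0.0086) against the DMSO libraries of 6 h and 24 h.

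Under Nutlin no MIR name passed the test, against 12.7% of all names (9.63% higher, 3.11% lower). MIR3 had 4266 and 3857 CPM per Mb in the Nutlin libraries and 3707 and 3618 in DMSO. The groups did not overlap, and the log2 difference was 0.15 (SE 0.07, adjusted p = 0.162). The other names were at 0.05 (MIRc), 0.02 (MIR) and 0.01 (MIRb). MIR3 was the single MIR name with an unadjusted p under 0.05, and DESeq2 called none. The scaling moved these calls: with DESeq2's size factors in edgeR (RLE) MIR3 was called higher at 0.15 (adjusted p = 0.015), and with library size alone MIR and MIRb were called lower, both at -0.16. At 6 h of 5-FU no MIR name passed, as was the case for all names in the table (0% called), with 1 MIR name, MIRc, under an unadjusted p of 0.05 and none called by DESeq2. MIR3 was at 0.29 (adjusted p = 0.457) there.

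At 24 h of 5-FU none of the 4 names was called, against 12.1% of all names (10.9% higher, 1.21% lower). MIR3 was under an unadjusted p of 0.05, and DESeq2 called none. MIR3 was 9738 CPM per Mb in replicate 1 and 6656 in replicate 2, with DMSO at 6711 and 5876. The 5-FU and DMSO libraries overlapped through replicate 2. The log2 difference was 0.38 (adjusted p = 0.10). With replicate 2 of 5-FU left out it was 0.63, and leaving out 1 library at a time moved it between 0.08 and 0.63. No name was called for the difference between the 24 h and the 6 h effect or for DMSO against untreated cells, where 1.11% (0.835% higher, 0.278% lower) and 11.8% (1.67% higher, 10.1% lower) of all names were called. No MIR name had an unadjusted p under 0.05 in either, and DESeq2 called none.

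Of single MIR copies, a smaller share was called than of all tested copies under Nutlin and at 24 h of 5-FU, and a slightly larger one at 6 h and 12 h, differences that were not tested. Under Nutlin 166 of 2166 tested MIR copies passed an adjusted p of 0.05, 105 higher and 61 lower, which is 7.66% beside 9.57% of all tested copies (5.37% higher, 4.21% lower). At 6 h of 5-FU 7 of 6165 passed, all higher, beside 0.104% of all copies (0.0928% higher, 0.011% lower). Leaving out a DMSO library gave 1 or 0 such copies, and leaving out a 5-FU library 3 or 1. At 12 h 621 passed, 367 higher and 254 lower, or 10.1% beside 9.68% (5.36% higher, 4.33% lower). At 24 h 194 passed, 119 higher and 75 lower, or 3.15% beside 4.16% (2.29% higher, 1.87% lower). Over the 4 drug comparisons 824 different MIR copies were called at least once. In bulk RNA, fewer cells that carry a transcript and less of it per cell cannot be told apart.

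The median log2 fold change of tested MIR copies was 0.02 under Nutlin, 0.11 at 6 h, 0.04 at 12 h and 0.04 at 24 h of 5-FU, beside 0.01, 0.02, -0.05 and -0.02 for all tested copies. The split at 12 h and 24 h rested on the scaling. With library size alone, 12 h of 5-FU gave 177 MIR copies called higher and 540 called lower, 24 h gave 84 and 140, and Nutlin gave 80 and 108. With that scaling the median of all tested copies lay at -0.48, -0.21 and -0.16. Against the DMSO libraries of 6 h and 24 h, 637 were higher and 235 lower at 12 h. At 24 h, leaving out replicate 1 of 5-FU gave 85 higher and 118 lower, and leaving out replicate 2 gave 148 and 43. The count at 12 h fell to between 213 and 287 when any single library of the comparison was left out, with 101 higher and 112 lower without DMSO replicate 1, and that at 24 h to 73 or 77 when a DMSO library was.

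By name, the share called at 12 h was 11.9% for MIR3 (88 higher, 49 lower), 11.6% for MIRc (72 and 58), 9.18% for MIR (84 and 69) and 9.01% for MIRb (123 and 78). Under Nutlin it was 8.51% for MIR3, 8.28% for MIRb, 6.92% for MIR and 6.54% for MIRc. L2 copies, whose tail MIR shares, had 8.99% called under Nutlin and 8.38% at 12 h, and copies of the old Alu subfamily AluJ 9.97% and 9.25%. By depth, the shares did not follow a single order. Among copies with a mean of 100 counts or more per library, 14.3% of MIR copies and 23.6% of other copies were called under Nutlin, 31.8% and 31.0% at 12 h, and 6.36% and 14.2% at 24 h of 5-FU. Between 30 and 100 counts they were 9.13% and 11.5% under Nutlin, 23.5% and 24.0% at 12 h, and 8.29% and 11.7% at 24 h. Between 10 and 30 counts the shares were 4.78% and 5.30% under Nutlin, 12.0% and 12.2% at 12 h, and 4.90% and 5.37% at 24 h. Under 10 counts they were 9.32% and 9.94%, 3.96% and 3.59%, and 0.804% and 1.36%. At 12 h the share thus rose from band to band, while under Nutlin it was lowest between 10 and 30 counts and at 24 h that of MIR copies was highest between 30 and 100. A copy with a mean under 10 counts can pass the filter through the group where it is high. That band can therefore hold copies that had to differ. No test of these differences was made.

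**Figure D3:**
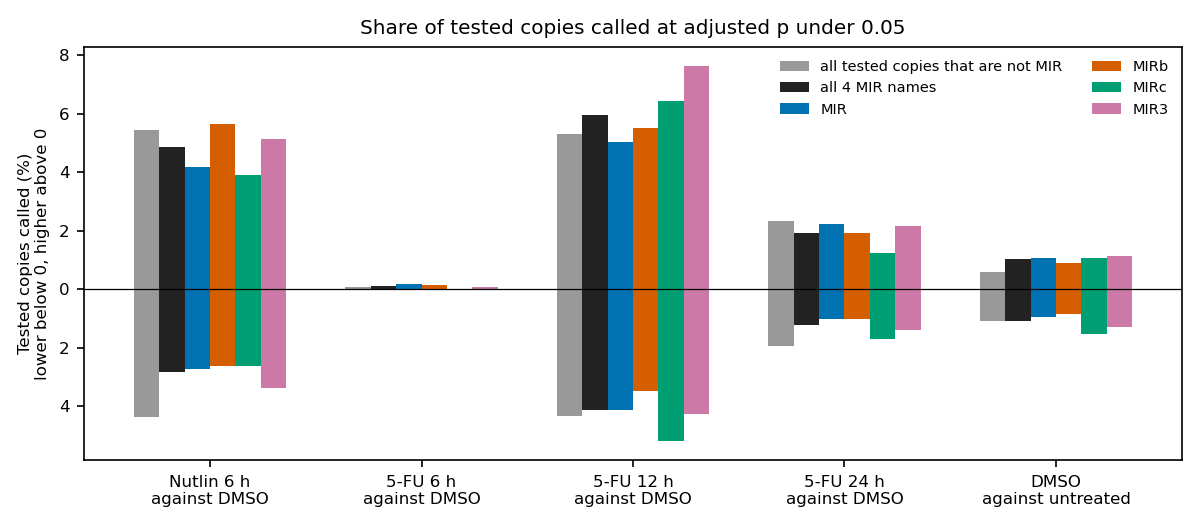
Share of tested copies (%) called higher (above 0) or lower (below 0) at an adjusted p under 0.05 in each comparison, for copies that are not MIR, for all MIR copies and for each MIR name. MIR copies had 4.85% higher and 2.82% lower under Nutlin, where the other copies had 5.43% and 4.36%. At 12 h the split changes with the scaling.

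A small set of MIR copies rose under both drugs. All 7 copies called at 6 h of 5-FU were called higher at 12 h and 24 h too, and 6 of them were called higher under Nutlin. The seventh was not tested in the Nutlin table. Of the 2140 MIR copies tested in both tables, 153 were called under Nutlin and 115 at 24 h of 5-FU, and 27 were called in both in the same direction, which is 17.6% of the first set and 23.5% of the second. Of these, 15 were higher and 12 lower. Another 4 were called in opposite directions. With 5-FU at 12 h, 45 copies were called in both, 31 alike and 14 in opposite directions. The 24 h sign matched the Nutlin sign in 64.1% of copies called under Nutlin and in 51.7% of those not called. For 12 h these shares were 57.5% and 50.9%. Overlaps were counted for MIR copies only, so no share over all tested copies stands beside them.

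The densest run of such copies was on chromosome 6. Within 3224 bp, from 36649870 to 36653093, 7 MIR copies could be tested in the Nutlin table, and all were called higher. Their DMSO libraries held few or no reads, so these copies passed the filter on low counts through the Nutlin libraries and had to differ, and the 7 of 7 is a description only. Of the same 7, 3 were called higher at 6 h of 5-FU, 6 at 12 h and 5 at 24 h. Those with few reads in all DMSO and untreated libraries, such as chr6:36652917-36653010, passed the filter there through the 5-FU libraries. They had to differ, so these counts are a description as well. The MIR3 copy at chr6:36652397-36652490 had 2 and 2 counts in the DMSO libraries of Nutlin and 49 and 43 in the Nutlin libraries, or 0.24 and 0.23 CPM against 4.70 and 5.65. In the 5-FU table it had 1.54 and 0.24 CPM with DMSO and 12.1 and 12.5 with drug at 6 h, 1.41 and 0.48 against 35.4 and 45.1 at 12 h, and 2.35 and 2.99 against 30.6 and 18.4 at 24 h. Every drug library lay above every DMSO library of its time, and the untreated cells were low. With so few control counts, the ratio under Nutlin was 22.1 (95% interval 8.34 to 82.8, counting error only), and at 12 h it was 42.6 (16.4 to 158). At 6 h and 24 h the log2 fold changes were 3.75 (SE 0.52, adjusted p = 0.00121) and 3.17 (SE 0.41, adjusted p = 6.55e-05). The MIR copies at chr6:36652497-36652615 and chr6:36652917-36653010, picked after their values were seen because they were called at every time, are its neighbours. Their log2 fold changes at 6 h were 2.10 and 3.20, and those at 24 h were 2.68 and 3.67. At 6 h the calls of these copies were lost when a single library was left out, with adjusted p up to 0.461 and 0.348, and that of the MIR3 copy with up to 0.0824.

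On chromosome 12, a pair of MIRb copies rose in all 4 drug comparisons. The copy at chr12:69210877-69211103, which holds nearly the whole repeat (positions 27 to 267), had 0.587 and 0.793 CPM with DMSO and 15.2 and 17.2 with Nutlin. In the 5-FU table it had 4.61 and 2.92 CPM with DMSO and 13.1 and 17.7 with drug at 6 h, 2.82 and 1.90 against 42.4 and 48.0 at 12 h, and 2.12 and 3.63 against 48.1 and 61.2 at 24 h. The drug libraries were above the DMSO libraries throughout, and those of 6 h were the lowest of the 5-FU ones. The log2 fold changes were 4.52 (SE 0.30, adjusted p = 2.2e-06) under Nutlin, 2.03 (adjusted p = 0.0124) at 6 h, 4.24 at 12 h and 4.23 (SE 0.34, adjusted p = 2.2e-07) at 24 h. In the Nutlin table this copy had few reads with DMSO, so it passed the filter on low counts through the Nutlin libraries. It had to differ there, and its Nutlin value is a description only. The copy at chr12:69240610-69240685 holds the end of the repeat (positions 194 to 268). It had 1.06 and 1.13 CPM with DMSO and 52.5 and 45.8 with Nutlin. This copy too passed the filter on low counts through the Nutlin libraries, so its Nutlin value is a description only. Among the 5-FU libraries it had 6.41 and 6.33 CPM with DMSO and 19.9 and 24.0 with drug at 6 h, 0.939 and 2.38 against 17.7 and 18.8 at 12 h, and 3.53 and 4.70 against 28.3 and 17.8 at 24 h. No drug library overlapped its controls. The log2 fold change was 5.47 (SE 0.21, adjusted p = 8.1e-09) under Nutlin, 1.78 at 6 h, 3.43 at 12 h and 2.46 (adjusted p = 0.000162) at 24 h. The order of size thus differed between these copies, and the difference between the drugs was not tested, since the tables were normalised separately. The 6 h calls of both were lost when a single library was left out, with adjusted p up to 0.32 and 0.36.

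MIR copies on chromosome 8 rose from a higher starting level. The MIR copy at chr8:95941490-95941586, which holds the centre of the repeat, had 7.52 and 4.99 CPM with DMSO and 44.7 and 39.8 with Nutlin. With 5-FU the 6 h libraries had 38.9 and 45.0 CPM, the 12 h libraries 68.2 and 69.7 and the 24 h libraries 43.2 and 34.7, where the DMSO libraries ranged from 11.3 to 17.9. All drug libraries lay above all DMSO libraries. The log2 fold change was 2.76 (SE 0.19, adjusted p = 2.51e-06) under Nutlin, and 1.74, 2.25 and 1.18 at the 3 times of 5-FU. The 6 h and the 24 h call were each lost when single libraries of the comparison were left out, with adjusted p up to 0.192 and 0.135. A MIRc copy at chr8:103218502-103218656 and a MIR copy at chr8:103219968-103220133 rose by 1.78 and 1.81 under Nutlin, by 1.42 and 1.57 at 12 h and by 1.44 and 1.67 at 24 h of 5-FU. At 6 h they were at 0.88 and 0.84 and did not pass.

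On chromosome 16, a MIR copy and a MIRb copy rose under 5-FU and were too low in the Nutlin table to test. The MIR copy at chr16:88456022-88456151 had 3.85 and 6.57 CPM with DMSO and 12.9 and 17.2 with 5-FU at 6 h, 5.17 and 4.28 against 44.2 and 40.1 at 12 h, and 3.29 and 1.28 against 37.8 and 34.7 at 24 h. The drug libraries exceeded the DMSO libraries at each time. The log2 fold change was 1.52 at 6 h (adjusted p = 0.143), 3.15 at 12 h and 3.98 (SE 0.38, adjusted p = 1.31e-06) at 24 h. In the Nutlin table this copy had 8 and 8 counts with DMSO and 6 and 0 with Nutlin. The MIRb copy at chr16:88457510-88457596 had 0 and 2 counts in the DMSO libraries of 12 h and 126 and 96 with 5-FU, a ratio of 85.7 (95% interval 23.4 to 712, counting error only). At 24 h it rose by 4.14 (SE 0.43, adjusted p = 3.02e-06). Its 6 h call, at 2.00, was lost in 7 of 12 alternatives, with adjusted p up to 0.505.

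The copies that fell were of several patterns. Those that fell under Nutlin and again at 24 h of 5-FU, but were not called at 6 h of 5-FU, included 4 of the named copies. The MIR copy at chr3:160153593-160153741 had 34.5 and 38.4 CPM with DMSO and 12.9 and 13.7 with Nutlin. The 5-FU libraries of 6 h had 54.5 and 63.0 CPM, those of 12 h 60.5 and 68.2 and those of 24 h 36.9 and 30.3, and the DMSO libraries of 24 h had 79.0 and 73.9. The 24 h drug libraries were below every other library of that table. The log2 fold change was -1.46 (SE 0.13, adjusted p = 3.71e-05) under Nutlin and -1.19 (SE 0.22, adjusted p = 0.00193) at 24 h, and the latter call was lost in a fit of its own 4 libraries alone (adjusted p = 0.0875). The MIR copy at chr11:58921074-58921174 fell by 1.66 and 1.53 on the log2 scale in the same comparisons. The MIR3 copy at chr17:6353957-6354035 had 14.6 and 16.7 CPM with DMSO and 5.46 and 6.04 with Nutlin, and 28.2 and 23.1 against 3.15 and 2.28 at 24 h of 5-FU. The groups were apart in both, with log2 fold changes of -1.44 (adjusted p = 0.000737) and -3.25 (SE 0.35, adjusted p = 5.26e-06), while at 6 h and 12 h they overlapped. The MIR3 copy at chr10:13251711-13251819 had 4.58 and 6.00 CPM with DMSO and 0.671 and 0.525 with Nutlin, a log2 fold change of -3.10 (SE 0.40, adjusted p = 0.000508). It was at -2.13 at 12 h, which was -0.55 (adjusted p = 0.31) against the DMSO libraries of 6 h and 24 h and -1.66 (adjusted p = 0.0555) without DMSO replicate 1, and at -2.88 (adjusted p = 0.000687) at 24 h.

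A MIRb and a MIR copy less than 1 kb apart on chromosome 1 fell at 24 h to 4 to 11 reads per library. The MIRb copy at chr1:68939919-68940060 had 30.1 and 26.3 CPM with DMSO and 1.72 and 2.09 with 5-FU, and the MIR copy at chr1:68940669-68940905 had 21.4 and 20.7 against 1.15 and 1.14. In both, the drug libraries were lower than any other library of the table. The log2 fold changes were -3.84 (SE 0.34, adjusted p = 6.57e-07) and -4.16 (SE 0.38, adjusted p = 8.28e-07). Under Nutlin they were at -0.61 (adjusted p = 0.0821) and -0.56 (adjusted p = 0.12). These copies were also lower with DMSO than in untreated cells, which had 47.7 and 44.5 CPM of the first and 25.3 and 34.8 of the second. The difference between the DMSO libraries of 6, 12 and 24 h and the untreated ones was -1.45 (adjusted p = 0.000746) and -1.03 (adjusted p = 0.0199). The DMSO group means of the first copy were 13.2, 13.0 and 28.2 CPM at 6, 12 and 24 h. DMSO, time and handling cannot be told apart in this comparison.

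Of the 3 copies with the smallest p among those that fell at 12 h of 5-FU, a MIRc and a MIR3 copy were low at that time and not at 24 h. The MIRc copy at chr9:100619609-100619740 had 32.9 and 29.0 CPM with DMSO and 0 and 1.44 with 5-FU at 12 h. At 24 h it had 22.3 and 19.6 CPM with DMSO and 25.8 and 19.3 with 5-FU, and at 6 h 15.1 and 13.4 against 16.9 and 18.7. The 12 h drug libraries stood below all others, including the untreated ones at 3.84 and 1.87. The control exceeded the drug level 42.4 times at 12 h (95% interval 16.2 to 158, counting error only). This copy was higher with DMSO than in untreated cells by 2.84 (adjusted p = 0.000339). The MIR3 copy at chr7:131185625-131185775 had 40.9 and 49.0 CPM with DMSO and 5.90 and 4.33 with 5-FU at 12 h. Its log2 fold change was -3.13 (SE 0.31, adjusted p = 2.16e-06) at 12 h, -0.11 at 24 h and 0.07 at 6 h, and DMSO was above untreated by 1.62 (adjusted p = 0.00141). The part of the vehicle in these 12 h differences was not tested.

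A run of 4 MIR copies on chromosome 12, within 3329 bp from 105414171 to 105417499, was called in opposite directions with the drugs. The MIRb copy at chr12:105416853-105417041 had 7.40 and 7.59 CPM with DMSO and 14.9 and 16.9 with Nutlin. Among the 5-FU libraries it had 28.6 and 45.6 CPM with DMSO and 5.90 and 4.33 with 5-FU at 12 h, and 16.7 and 14.1 against 3.72 and 3.60 at 24 h. Nutlin libraries lay above their controls and the 12 h and 24 h 5-FU libraries below theirs. The log2 fold changes were 1.08 (SE 0.19, adjusted p = 0.00379), -2.85 (SE 0.34, adjusted p = 1.53e-05) and -2.06 (SE 0.33, adjusted p = 0.000567), and each call held under every alternative. Of the 4 copies, 3 were called higher under Nutlin, where the 4 ranged from 0.83 to 1.08, and all 4 were called lower at 12 h (-2.85 to -1.79) and at 24 h (-2.72 to -2.06). At 6 h of 5-FU, the time that matches Nutlin, none was called and they ranged from -0.36 to 0.52. The difference between the drugs at 6 h was not tested.

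**Figure D4:**
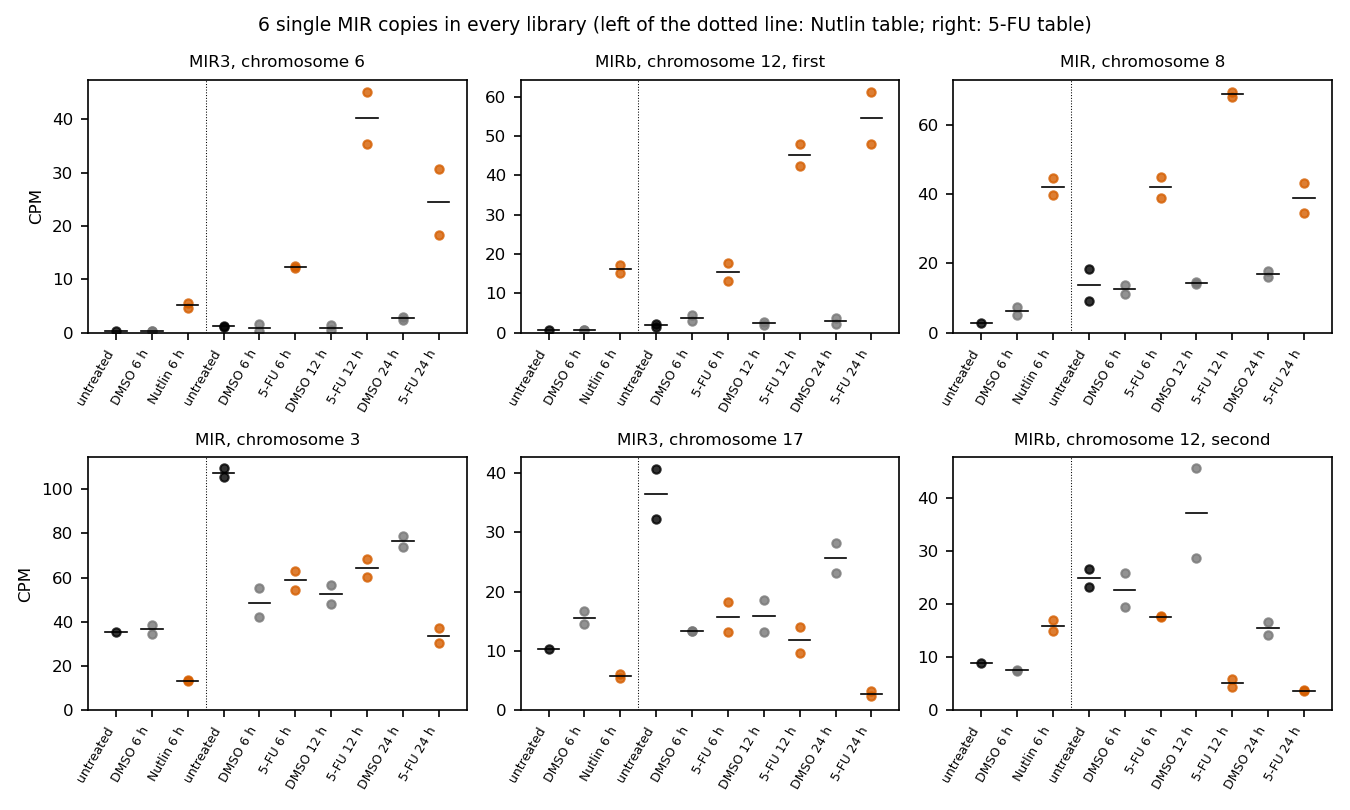
CPM of 6 MIR copies in every library, with a dot per library and a line at the group mean. The Nutlin table is left of the dotted line and the 5-FU table right of it, and levels are not comparable across the line. Top row: copies that rose under both drugs (chromosome 6, 36652397; chromosome 12, 69210877; chromosome 8, 95941490). Bottom row: copies on chromosomes 3 and 17 that fell under Nutlin and at 24 h of 5-FU, and the MIRb copy at chromosome 12, 105416853, that was higher with Nutlin and lower with 5-FU.

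The most abundant MIR copies were named for their level and not for a change. The chromosome 7 MIR3 copy introduced above had 2183 and 1773 CPM with DMSO and 2560 and 2409 with Nutlin. Untreated cells of the 5-FU table had 3945 and 3774 CPM. It had 8468 and 9429 with DMSO and 10238 and 11750 with 5-FU at 6 h, 5506 and 7362 against 16174 and 14930 at 12 h, and 7102 and 5369 against 15517 and 7234 at 24 h. The drug libraries lay above their own controls at each time, the untreated ones lay lowest, and replicate 2 of 24 h was far below its partner. The call was made at 12 h, with a log2 fold change of 1.27 (SE 0.31, adjusted p = 0.0125), and was lost without DMSO replicate 1 (adjusted p = 0.145) or either 5-FU replicate (0.0809 and 0.0609). It was at 0.33 (adjusted p = 0.0887) under Nutlin and 0.87 (adjusted p = 0.13) at 24 h.

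The MIRc copy at chr11:11985242-11985466, which holds positions 1 to 245 and thus almost a whole element, had 722 and 870 CPM with DMSO and 1927 and 2084 with 5-FU at 12 h, a log2 fold change of 1.33 (SE 0.24, adjusted p = 0.00126). The MIR3 copy at chr3:127789993-127790114 had 455 and 497 against 1041 and 1057 at 12 h, a log2 fold change of 1.14 (adjusted p = 0.00158), and was 0.39 higher (adjusted p = 0.0334) under Nutlin, a call that held in 7 of 13 alternatives. In each of these copies the 12 h DMSO libraries were the lowest of the table. The remaining abundant copies, a MIR3 copy at chr3:120114638-120114696 and a MIRc copy at chr6:86204046-86204271, were called in no comparison, with log2 fold changes between -0.23 and 0.26 in the 4 drug comparisons.

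MIR copies moved with the repeats next to them. Each tested MIR copy was paired with the nearest tested copy of another repeat, by the distance between their centres. Under Nutlin the log2 fold changes of the pair correlated at r = 0.77 for the 1146 MIR copies with such a neighbour within 1 kb and at 0.56 for the 536 with one at 1 to 10 kb. For the 331 at 10 to 100 kb and the 153 beyond, r was -0.03 and 0.08. At 24 h of 5-FU r was 0.63 under 1 kb (3378 copies) and 0.37 at 1 to 10 kb (2164 copies), and at 12 h 0.52 and 0.33. At 6 h, where few copies were called, it was 0.27 and 0.16. These values describe pairs from the same libraries, and the copies of a pair are not independent. How reads that touch both copies of a close pair were counted is not given in the sources used here.

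The calls showed the same pattern. Under Nutlin, 132 called MIR copies had a neighbour within 10 kb, and in 80 of them (60.6%) the neighbour was called in the same direction and in none in the opposite one. Of the 1550 MIR copies not called, 6.26% had a called neighbour. At 24 h of 5-FU the counts were 98 of 176 (55.7%), none opposite, against 3.37%, and at 12 h 191 of 546 (35.0%), with 7 opposite, against 9.03%. Of the 34 called MIR copies under Nutlin whose nearest other repeat was 10 kb away or more, 1 had a neighbour called in the same direction. For L2 and AluJ copies under Nutlin r was 0.76 and 0.68 under 1 kb, 0.56 and 0.10 at 1 to 10 kb, and 0.20 and 0.15 at 10 to 100 kb. Of their called copies with a neighbour within 10 kb, 49.6% (L2) and 53.3% (AluJ) had one called in the same direction. The difference between MIR copies and these was not tested.

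**Figure D5:**
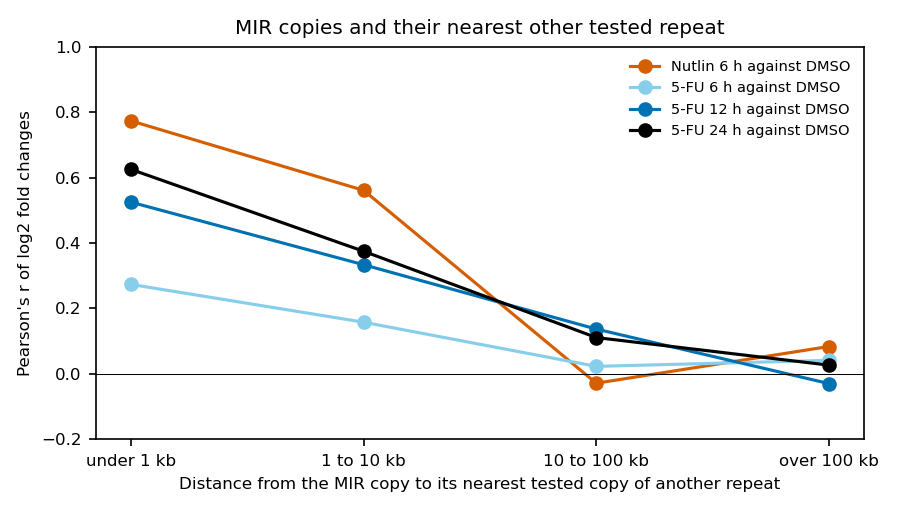
Pearson's r between the log2 fold change of a MIR copy and that of its nearest tested copy of another repeat, by the distance between their centres, for the 4 drug comparisons. The lines start at 0.27 to 0.77 under 1 kb and end between -0.03 and 0.08 beyond 100 kb.

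The named copies show this at single loci. The AluJo copy at chr6:36652616-36652916, which lies between the chromosome 6 MIR copies, rose by 3.65 under Nutlin and by 2.84, 4.03 and 3.10 at 6, 12 and 24 h of 5-FU. On chromosome 8, the MamSINE1 copy at chr8:95941308-95941361, another ancient SINE, rose by 2.33 under Nutlin and 2.39 at 12 h, beside the MIR copy at 2.76 and 2.25. The L2 copy at chr1:68940251-68940476, which lies between the fallen MIRb and MIR copies of chromosome 1, fell by 4.01 at 24 h. On chromosome 9, the MER33 copy at chr9:100618912-100619192 was at -5.27 at 12 h, 0.44 at 24 h and 0.35 at 6 h, as the MIRc copy beside it was low at 12 h alone. The MIR3 copy of chromosome 17 differed: its nearest tested other repeat, an L1MC4 copy 131080 bp away, was at 0.27 at 24 h (adjusted p = 0.891). For the chromosome 7 MIR3 copy, the nearest other repeat, an AluJo copy less than 1 kb away, was at -0.14 at 12 h (adjusted p = 0.896).

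The time of 5-FU was compared by an interaction term for 24 h against 6 h. The effect of 5-FU at 24 h differed from that at 6 h in 19 MIR copies, 2 with a higher and 17 with a lower effect at 24 h, beside 0.401% of all copies (0.077% higher, 0.324% lower). Leaving out replicate 1 of 5-FU at 24 h gave 50 such copies, and leaving out any other single library of these times gave 7 to 16. The 102 MIR copies called at both 12 h and 24 h, which is 16.4% of those at 12 h and 52.6% of those at 24 h, were all called in the same direction. The same overlap was not counted over all tested copies.

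DMSO against untreated cells gave 130 called MIR copies, 63 higher and 67 lower, beside 1.72% of all copies (0.623% higher, 1.1% lower). The largest runs held 4 called copies each. On chromosome 2 (216233093 to 216286153) 4 of 12 tested MIR copies were higher with DMSO, with log2 differences of 1.33 to 2.48, and on chromosome 14 (96705525 to 96708918) 4 of 5 were lower, with -1.56 to -0.95. Leaving out either untreated library reduced the count to 17 or 9, and leaving out DMSO replicate 1 of 12 h or replicate 2 of 24 h to 71 or 77. With library size alone it was 61 higher and 140 lower.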

How the data were processed

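Total RNA of 18 samples was prepared with a stranded total RNA kit, per the labels' protocols. The authors deposited 2 tables of raw counts per repeat copy. The submitters' processing notes name Trimmomatic 0.32, cutadapt 1.10, Bowtie2, edgeR, DESeq2 and hg19. The counting tool, the repeat annotation, the use of strand and the treatment of reads with several matches are not given in the sources used here. Reads of near-identical copies may therefore be split or misplaced, and copies on opposite strands or within a longer transcript cannot be told apart.

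Each table was fitted whole with edgeR 4.0.16 (R 4.3.3; quasi-likelihood test, TMM scaling, filterByExpr by group), once per copy and once on counts summed per repeat name, where library sizes and TMM factors came from all copies. All groups of a table shared 1 estimate of the spread. P-values were adjusted by Benjamini-Hochberg over all copies or names tested, and a call is an adjusted p under 0.05. CPM values are relative to the scaled library size, over tested copies for single copies and over all copies for names. The quasi-likelihood test, and not the whole processing, was also run on simulated counts for the Nutlin and the 24 h 5-FU comparison. The 5-FU comparisons each used the DMSO group of the same time, the vehicle comparison set all DMSO libraries of that table against its untreated ones, and the difference between the 24 h and the 6 h effect was an interaction term. Where the DMSO or the drug group of a named copy had at most 3 counts per library, or a library had none, a change described for it is given as a ratio. Its exact 95% interval covers counting error only.

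Every MIR name was named. Of single copies, the rule took, in each drug comparison, 3 copies that rose and 3 that fell with the smallest p (absolute log2 fold change of at least 1, no overlap between drug and DMSO libraries), the 5 most abundant of each table, and the 5 with the smallest larger p among those called alike under Nutlin and at 24 h of 5-FU. Members and lists were chosen with earlier results of these data known. Alternatives were other scalings (DESeq2 1.42.0 size factors, library size alone), filters, thresholds, DESeq2 as the test, a replicate block, other controls and each library left out. No sequences are printed, and no gene annotation of hg19 was used here.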

Additional observations from a re-analysis of the deposited data

Results flagged for a closer look

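The effect of 5-FU differed between 24 h and 6 h, by the test of the difference itself (edgeR's quasi-likelihood test with Benjamini-Hochberg adjustment), in 19 MIR copies. Of the named copies, 7 were among them. The effect at 24 h was lower than that at 6 h, on the log2 scale, by a difference of -3.98 (adjusted p = 0.000235) for the MIR copy at chr1:68940669-68940905 and of -3.06 (adjusted p = 0.00155) for its MIRb neighbour at chr1:68939919-68940060. The difference was -3.48 (adjusted p = 0.000412) for the MIR3 copy at chr17:6353957-6354035 and -2.87 (adjusted p = 0.0385) for the MIR3 copy at chr10:13251711-13251819. It was -1.86 (adjusted p = 0.0219) for the MIR copy at chr11:58921074-58921174 and -1.46 (adjusted p = 0.0315) for that at chr3:160153593-160153741. The MIR copy at chr16:88456022-88456151 had the opposite sign, with 2.46 (adjusted p = 0.0384). Both untreated libraries exceeded all DMSO libraries of the 5-FU table in the copies on chromosomes 1, 3 and 17, and the part of the vehicle in these differences was not tested.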

How the results depend on the processing

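Depth limits these results: most MIR copies had too few counts to test. Of 55 pairs of a named copy and a comparison in which it was called, 43 were called under every alternative and 0 changed sign. Alternatives in which a copy was not tested are not counted. Most of these copies were picked for a small p in the same data, which favours such stability, so this is a description only. The counts of called MIR copies changed with the setting. At an adjusted p under 0.01 they were 64 (Nutlin), 2, 236 and 79 (5-FU at 6, 12 and 24 h), 7 (24 h against 6 h) and 32 (vehicle). DESeq2 gave 79 under Nutlin, 14 at 6 h and 35 for 24 h against 6 h. Without a filter on low counts there were 22, 324 and 122 at 6, 12 and 24 h and 30 for 24 h against 6 h, and a minimum of 10 counts in each library left 3 at 6 h, 405 at 12 h (176 higher, 229 lower) and 42 for 24 h against 6 h. Fits of the libraries of the comparison alone gave 292 at 12 h, 116 at 24 h and 10 for 24 h against 6 h. Library size alone gave 3 at 6 h and 201 for the vehicle.

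With 1 library left out, 154 to 207 copies were called under Nutlin, 0 to 3 at 6 h (each library moved the count), 213 to 287 at 12 h, 73 to 203 at 24 h, 7 to 50 for 24 h against 6 h and 9 to 96 for the vehicle. The names called were 0 to 1 under Nutlin and at 24 h, and 1 at 12 h in every such fit. At 6 h, for 24 h against 6 h and for the vehicle they remained 0.

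Of the MIR names at 12 h, 1 was called at an adjusted p under 0.01, against the DMSO libraries of 6 h and 24 h, with RLE factors, with TMM factors from the sums per name, from the libraries of the comparison alone and by DESeq2. Under Nutlin, 1 name was called with RLE factors, without structural RNA and from the libraries of the comparison alone, and 2 were called lower with library size alone. The direction turned with library size alone for MIR (-0.16) and MIRb (-0.16) under Nutlin, where MIR3 was at -0.026, and for MIR (-0.41), MIRb (-0.34) and MIRc (-0.31) at 12 h. It also turned at 12 h with RLE factors for MIRb (-0.057), MIRc (-0.023) and the uncalled MIR (-0.12) and, against the DMSO libraries of 6 h and 24 h, for MIRb (-0.018) and MIR (-0.069). The cause was not tested.

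The replicate numbers were not shown to pair the samples: deviations of same-numbered drug and DMSO libraries correlated at -0.006 (Nutlin), -0.003, -0.015 and 0.137 (5-FU at 6, 12 and 24 h). With the replicate number as a block, 134 MIR copies were called under Nutlin, 7, 555 and 172 at 6, 12 and 24 h, 16 for 24 h against 6 h and 108 for the vehicle, and the number of names called was the same in each comparison.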

Other observations

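Further runs of MIR copies were picked after their values were seen, each from called copies less than 50 kb apart. On chromosome 1, from 112265506 to 112268885, all 4 tested copies were called higher under Nutlin (log2 fold changes of 2.31 to 3.17) and 0 at any time of 5-FU, where they ranged from 0.61 to 1.83 at 6 h and from 0.36 to 1.19 at 24 h. The difference between the drugs was not tested. On chromosome 16, from 88823737 to 88829160, 4 of 5 tested copies were called higher at 12 h and 4 at 24 h of 5-FU, with 2.25 to 3.72 over the 5 copies at 24 h. On chromosome 11, from 27663689 to 27670493, 4 of 5 were called higher at 24 h and 3 at 12 h. On chromosome 15, from 67387277 to 67421450, 5 of 9 were called higher at 12 h (2.58 to 4.29) and 1 at 24 h. A copy with few reads in its controls can pass the filter on low counts only through the libraries where it is high, so these counts are a description.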
